A study of Mus musculus with 12 samples.

Results

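Olfr1297, Olfr77, Olfr460 and Olfr393 are mouse odorant receptor genes with a very low signal in GFP-positive relative to GFP-negative cells of the olfactory mucosa. They are 4 of 1015 receptors and of 19938 genes measured. Chosen were the receptors among the 3 lowest differences of vehicle mice, of odor mice, or of both, so the differences between the sorted fractions chose them and are given here as a description, without a test. Each has 1 probe set that names no other gene, which was read on every array.

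The arrays were hybridised with RNA from S100a5-tauGFP mice, which carry a fluorescent reporter named for the calcium-binding protein gene S100a5. Mice of both sexes, 7 to 12 weeks old, sat singly in clean air chambers for 40 hours and, after 26 hours, breathed pulses of vehicle (filtered air) or of odorant, a citrus accord at 5%, 10 seconds long and 20 minutes apart. The mucosa was dissociated and sorted into GFP-positive and GFP-negative cells. The 4 groups are vehicle GFP-negative, vehicle GFP-positive, odor GFP-negative and odor GFP-positive, with 3 arrays each, and each of 6 pools of 3 mice gave 1 array of each fraction. All groups carry the reporter, each array is a mixture of cells, and a pool hides the spread between its mice.

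Odorant receptors are membrane proteins in the cilia of olfactory sensory neurons. A mature neuron transcribes 1 receptor allele, so a receptor transcript in bulk RNA stands for the neurons that chose that gene. An odor that fits the receptor activates a G protein, adenylyl cyclase and a cyclic nucleotide-gated channel. S100a5 transcription follows this activity, which is why its reporter is used to collect neurons whose receptors have been stimulated. Receptor genes lie in clusters along the chromosomes, and their MOR names group them by the similarity of their proteins. In such bulk samples fewer neurons of a receptor and less receptor RNA per neuron cannot be told apart.

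Olfr1297 (MOR248-4, probe set 10485784) lies at chr2:111621134-111622072 and Olfr77 (MOR143-1, also called 18A, probe set 10583428) at chr9:19917229-19922510. Olfr460 (MOR120-2, probe set 10537506) lies at chr6:40569152-40572504 and Olfr393 (MOR135-7, probe set 10388290) at chr11:73847185-73848123. All positions are RefSeq gene models on GRCm38.p6. The 4 genes are thus on different chromosomes and in different families, and each encodes an odorant receptor, with no ligand stated by the labels. Olfr393 is also listed with other receptors on 1 probe set that names 7 genes, which was not used.

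Olfr1297 had the largest deficit. Its signal in GFP-negative cells was 10.48, 10.60 and 10.34 (log2) in vehicle replicates 1, 2 and 4, and 5.86, 6.17 and 6.25 in the GFP-positive cells of the same pools. In odor replicates 2, 3 and 4 it was 10.75, 10.18 and 10.67 in GFP-negative and 4.69, 6.46 and 6.26 in GFP-positive cells. Every GFP-positive array was far below every GFP-negative array, and the GFP-positive array of odor replicate 2 stood lowest by more than 1 log2 unit. Within pools the GFP-positive cells had a mean log2 difference of -4.38 ± 0.27 in vehicle mice and -4.73 ± 1.20 in odor mice (SD, n = 3 pools). The vehicle value is 20.8-fold. Without odor replicate 2 the odor difference was -4.06. The 4.69 lies below the lower quartile of its array, 5.75, and below the tenth percentile of that array's receptors, 5.01, so no fold is given for odor mice.

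Olfr77 was low in GFP-positive cells of every pool, by a similar amount in both treatments. Its GFP-negative signal was 10.08, 10.44 and 9.82 in vehicle replicates 1, 2 and 4 and 10.10, 9.93 and 10.12 in odor replicates 2, 3 and 4. Its GFP-positive signal was 5.63, 6.19 and 6.22 in vehicle and 5.89, 6.64 and 6.49 in odor mice. The fractions did not overlap in either treatment. The mean difference within pools was -4.10 ± 0.44 in vehicle mice and -3.71 ± 0.46 in odor mice (SD, n = 3), or 17.1-fold and 13.1-fold. The 5.63 of vehicle replicate 1 lies below the lower quartile of its array, 5.73. It is above the tenth percentile of that array's receptors, 4.96, so the vehicle fold rests partly on a low signal.

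Olfr460 varied more between the GFP-positive arrays than between the GFP-negative arrays. Its GFP-positive signal was 6.55, 5.70 and 6.85 in vehicle replicates 1, 2 and 4 and 6.34, 7.62 and 7.53 in odor replicates 2, 3 and 4. In GFP-negative cells it was 10.13, 10.64 and 10.11 in vehicle and 10.63, 10.14 and 10.47 in odor mice. The fractions did not overlap, and the difference within a pool ran from -4.94 in vehicle replicate 2 to -2.52 in odor replicate 3. The mean differences were -3.93 ± 0.89 in vehicle and -3.25 ± 0.93 in odor mice (SD, n = 3), or 15.2-fold and 9.50-fold. The 5.70 of vehicle replicate 2 lies at the lower quartile of its array, 5.70, so the vehicle fold rests partly on a low signal. Without odor replicate 2 the odor difference was -2.73.

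Olfr393 differed between the fractions by a similar amount in all 6 pools, from -3.25 to -4.22. In GFP-positive cells it measured 6.95, 7.43 and 6.85 in vehicle replicates 1, 2 and 4 and 7.01, 6.54 and 7.58 in odor replicates 2, 3 and 4, against 10.38, 10.80 and 10.60 and 10.97, 10.76 and 10.82 in the matching GFP-negative cells. The fractions did not overlap, and the GFP-negative arrays of odor mice were close together, with an SD of 0.11. The mean differences were -3.51 ± 0.21 in vehicle and -3.81 ± 0.50 in odor mice (SD, n = 3), or 11.4-fold and 14-fold.

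**Figure D1:**
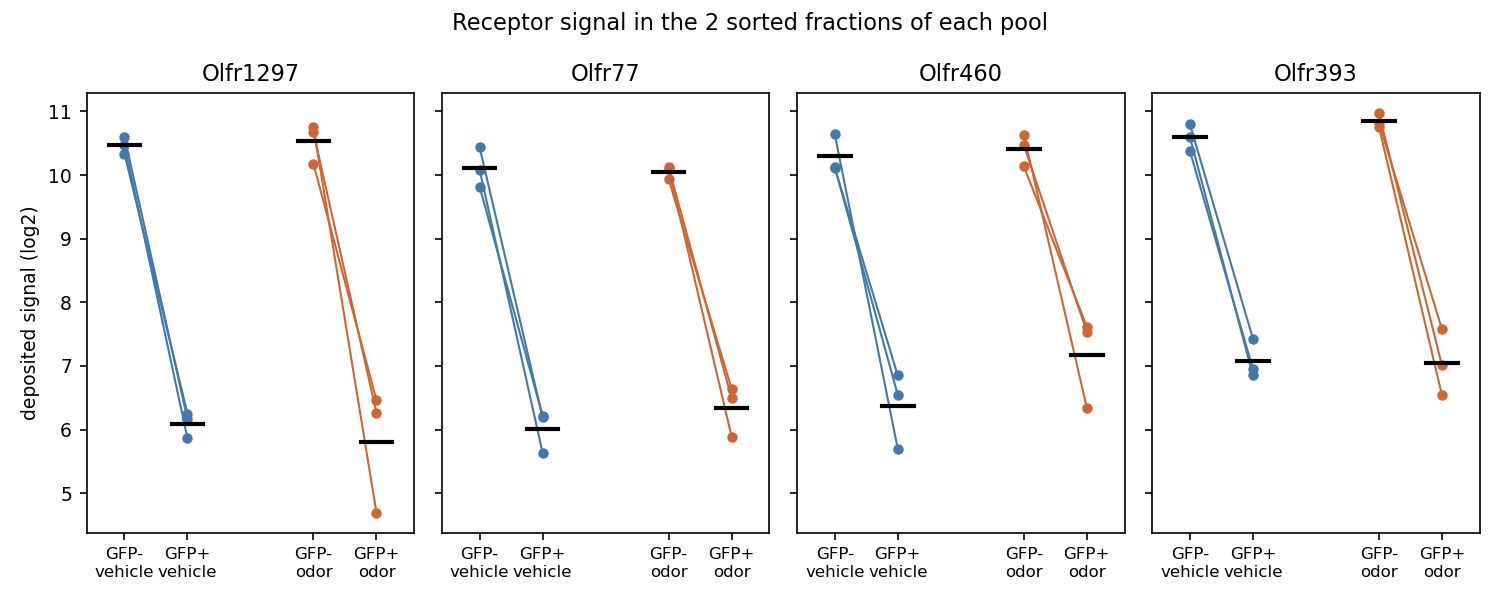
Deposited log2 signal of each receptor in GFP-negative (GFP-) and GFP-positive (GFP+) cells of vehicle (blue) and odor (orange) mice. Points are arrays, lines join the fractions of 1 pool and black bars are group means. All GFP-positive points lie below all GFP-negative points, and the lowest point is Olfr1297 at 4.69 in odor replicate 2.

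In all 4 genes the fractions were separate in both treatments. Among all receptors 12.2% were lower without overlap in vehicle mice and 12.8% in odor mice, and among all genes 22% and 20.4%. Nothing is read from this background, since this contrast chose the genes. In each gene the order of the 4 groups was the same at its coarse level, with both GFP-negative groups above both GFP-positive groups. The neighbours within a fraction, odor beside vehicle, overlapped in every gene and fraction, where 7.93% (GFP-positive) and 7.44% (GFP-negative) of all genes did not.

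Vehicle mice placed Olfr1297, Olfr77 and Olfr460 lowest, with differences of -4.38, -4.10 and -3.93, and Olfr1447 (MOR202-3) just outside at -3.82. Odor mice placed Olfr1297, Olfr393 and Olfr77 lowest, with -4.73, -3.81 and -3.71, and Olfr728 (MOR246-1P) just outside at -3.69. Olfr393 was in place 6 in vehicle mice and Olfr460 in place 10 in odor mice. By the mean of both treatments Olfr1447 (-3.61) lay between Olfr393 (-3.66) and Olfr460 (-3.59), and the next were Olfr728 (-3.49), Olfr1140 (-3.27), Olfr826 (-3.24) and Olfr459 (-3.23). The limit between the 4 genes and the rest is therefore narrow, except for Olfr1297. The median receptor went the other way, with a difference of 0.76 in vehicle and 0.66 in odor mice.

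**Figure D2:**
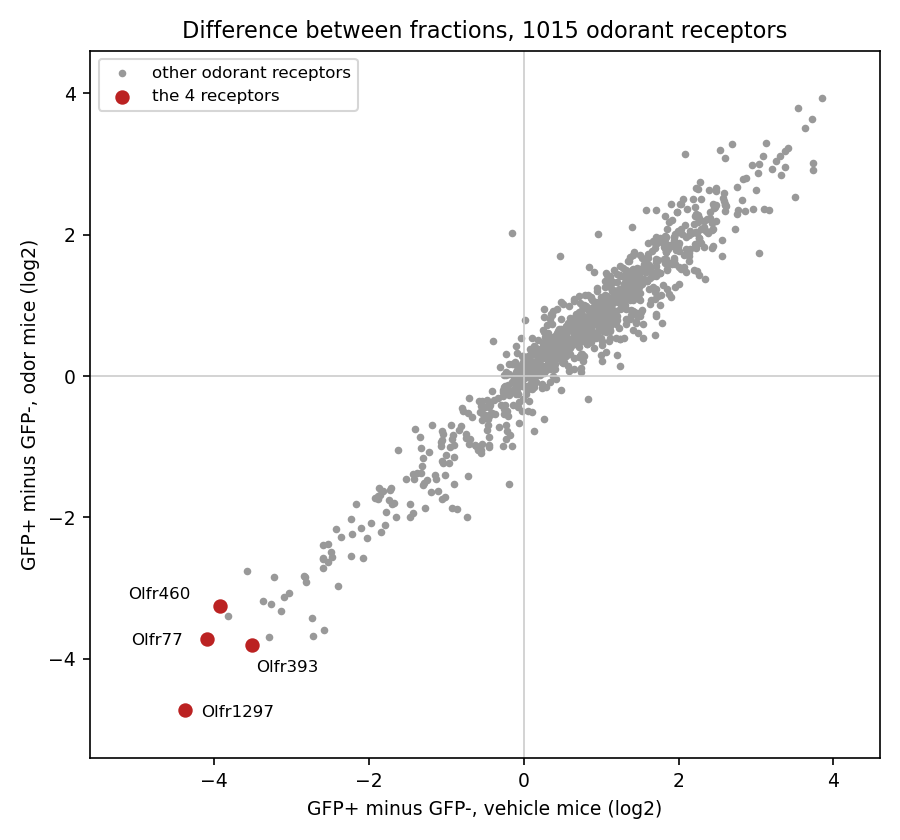
Difference between GFP-positive and GFP-negative cells (log2) for each of 1015 odorant receptors, in vehicle mice (x axis) and in odor mice (y axis). The 4 receptors, in red, lie at the lower left end, with Olfr1297 at -4.38 and -4.73 apart from the rest.

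The comparison of odor with vehicle mice asks whether the accord changed these receptors' signal in either fraction. The arrays are those that chose the genes. Olfr460 was picked by its low values in vehicle mice alone and Olfr393 by those in odor mice alone, so for these genes the test is not independent of the choice. None of the 4 receptors passed in either fraction in limma's moderated test, adjusted over all genes. The background was 0.00502% of genes called in GFP-positive cells (1 of 19938, another receptor, with 259 at an unadjusted p under 0.05, and 0 called when the GFP-positive arrays were fitted alone) and 0% in GFP-negative cells (0 of 19938, with 1301 at an unadjusted p under 0.05).

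Olfr460 had the largest difference among the 4, and it was in GFP-positive cells. The odor arrays averaged 7.17 ± 0.71 and the vehicle arrays 6.36 ± 0.60 (SD, n = 3), which is a gap of 0.80 (SE 0.34, 95% interval 0.065 to 1.54). The adjusted p was 1.00 in limma's fit over all genes. The groups overlapped, because odor replicate 2 at 6.34 lay within the vehicle range. Of 1015 receptors 5, Olfr460 included, differed at least this much in either direction in that fraction. A choice by low vehicle GFP-positive values favours a rise in odor mice, so nothing is read from this rank. The difference was 1.21 without odor replicate 2 and 0.47 without vehicle replicate 2, and neither passed. In GFP-negative cells Olfr460 differed by 0.12 (SE 0.34, 95% interval -0.61 to 0.86).

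The other receptors gave smaller differences in GFP-positive cells. Olfr77 differed by 0.33 (SE 0.21, 95% interval -0.13 to 0.78). Olfr1297 differed by -0.29 (SE 0.35, 95% interval -1.05 to 0.47), which turned to 0.27 without odor replicate 2. Olfr393 differed by -0.035 (SE 0.22, 95% interval -0.52 to 0.45), and its direction was not stable either, with 0.22 without odor replicate 3 and 0.14 without vehicle replicate 2. The intervals leave room for changes of up to 1 log2 unit in Olfr1297, so a missing call does not show that its signal was equal.

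In GFP-negative cells, where their signal was high, the differences were small. Olfr393 differed by 0.26 (SE 0.22, 95% interval -0.22 to 0.74), Olfr1297 by 0.060 (SE 0.35, interval -0.70 to 0.82) and Olfr77 by -0.059 (SE 0.21, interval -0.51 to 0.40). Both of the smallest changed direction when 1 pool was left out: Olfr1297 was -0.049 without odor replicate 2, and Olfr77 was 0.10 without vehicle replicate 2. The lowest adjusted p of the 8 tests was 0.810 in limma, and over their 140 alternative fits it ranged from 0.564 to 1.00.

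**Figure D3:**
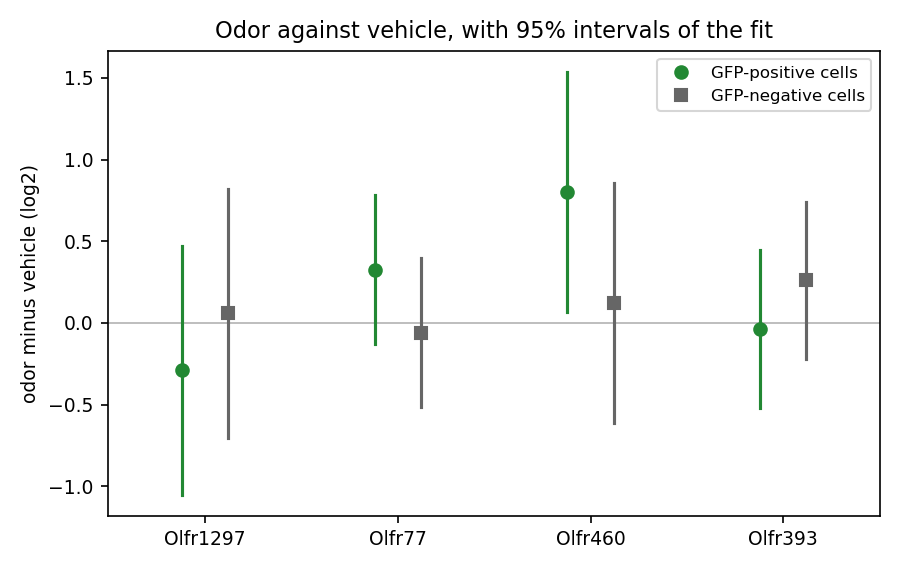
Odor minus vehicle difference (log2) of each receptor in GFP-positive (green circles) and GFP-negative (grey squares) cells, with 95% intervals from limma's fit of 12 arrays. Of the 8 intervals, that of Olfr460 in GFP-positive cells, 0.065 to 1.54, lies off 0, and no difference passed after adjustment. Olfr460 was picked by low values on the vehicle arrays used here.

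The scatter of the 4 receptors was uneven between the fractions of odor mice. In odor GFP-positive cells Olfr1297 had an SD of 0.97, more than 99.3% of receptors, and Olfr460 of 0.71, more than 97.1%, against a median receptor SD of 0.23. In odor GFP-negative cells Olfr77 (0.10) and Olfr393 (0.11) had smaller SDs than the median receptor, 0.32. Vehicle mice gave SDs in GFP-negative and GFP-positive cells of 0.13 and 0.20 for Olfr1297 and 0.31 and 0.33 for Olfr77. They were 0.30 and 0.60 for Olfr460 and 0.21 and 0.31 for Olfr393. The pools did not move all 4 genes together. Over 12 arrays the deviations from group means of Olfr1297 went with those of Olfr77 (Pearson r = 0.82) and Olfr460 (r = 0.75) but not with those of Olfr393 (r = 0.034). These arrays share pools, and odor replicate 2, where the GFP-positive deviations were -1.11 for Olfr1297, -0.45 for Olfr77, -0.82 for Olfr460 and -0.033 for Olfr393, is among them.

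The genes around each receptor show whether a low GFP-positive signal extended along its cluster, which the choice of the 4 did not use. None of the receptors measured beside Olfr1297 was called lower. Of the 5 measured receptors on each side of it, 0 of 10 were lower and 8 were higher in GFP-positive cells in the vehicle pools, and 0 and 7 in the odor pools. Over all receptors 11.1% were called lower in vehicle and 12.4% in odor mice, and 60.1% and 57% higher (limma, adjusted p over all genes at 0.05). The median of the 10 was 1.51 in vehicle and 1.09 in odor mice. With 10 genes, nothing particular to the cluster is read from these counts. Olfr1302 (MOR248-3) was higher by 2.96 and 2.36 (SE 0.32) and the adjacent Olfr1298 (MOR248-6) by 1.76 (SE 0.40) in vehicle mice, while its 1.01 in odor mice did not pass. Olfr1295 on the other side differed by 0.66 and 0.63 (SE 0.30) and did not pass.

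The MOR248 family, 7 of whose measured members are among those flanking genes, had no member called lower either. Of 13 other members 0 were lower and 10 higher in the vehicle pools, and 0 and 9 in the odor pools. Over all receptors 11.1% (vehicle) and 12.4% (odor) were called lower, and 60.1% and 57% higher. With 13 genes, 7 of them counted above, nothing particular to the family is read from these counts. Olfr1281 (MOR248-14P) was highest at 3.73 and 2.92 (SE 0.46), and Olfr1277 (MOR248-11) was lowest at -0.13 and -0.039 (SE 0.27), without a call. A coding start was at hand for 8 of the 13, which share from 18 (Olfr1302) to 48 of their first 50 coding bases with Olfr1297. The 2 that share most, picked for that likeness, are shown because their direction differs from that of Olfr1297; capitals mark bases that differ from Olfr1297 (RefSeq, GRCm38.p6, minus strand, chr2:111622023-111622072, chr2:111538238-111538287 and chr2:111645946-111645995).
Olfr1297: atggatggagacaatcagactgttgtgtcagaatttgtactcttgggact
Olfr1294: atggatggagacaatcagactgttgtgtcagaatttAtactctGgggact
Olfr1298: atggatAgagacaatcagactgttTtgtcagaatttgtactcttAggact
Olfr1294 (MOR248-7), which shares 48 of 50 bases with Olfr1297, was higher in GFP-positive cells by 2.04 in vehicle and 1.52 in odor mice (SE 0.28). Olfr1298 shares 47 of 50. How far probes of these genes bind each other's RNA was not tested, and probe sequences were not used here.

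Both other measured receptors of the MOR120 family of Olfr460 were lower in GFP-positive cells in both treatments. The shares of all receptors called lower were 11.1% (vehicle) and 12.4% (odor). Both genes are also the nearest measured receptors to Olfr460, so family and place cannot be told apart. Olfr459 (MOR120-1), 1202 kb away, had differences of -3.14 and -3.32 (SE 0.20) in vehicle and odor mice, and Olfr461 (MOR120-3), next to Olfr460, of -1.85 and -2.20 (SE 0.16). The 4 receptors that follow Olfr459, namely Olfr458, Olfr455, Olfr453 and Olfr38, are of other families, and 3 of them were higher in vehicle mice and 2 in odor mice. On the side of Olfr461 no further receptor was measured on the chromosome, so Olfr460 has 6 flanking genes instead of 10. The coding starts of the MOR120 genes, shown because the whole measured family was low, are less alike than those above; capitals mark bases that differ from Olfr460 (RefSeq, GRCm38.p6, chr6:40571388-40571437 on the plus strand, chr6:40544928-40544977 and chr6:41772248-41772297 on the minus strand).
Olfr460: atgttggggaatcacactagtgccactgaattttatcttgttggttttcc
Olfr461: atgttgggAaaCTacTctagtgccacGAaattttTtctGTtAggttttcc
Olfr459: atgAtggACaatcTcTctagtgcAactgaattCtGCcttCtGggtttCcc
Olfr461 shares 40 and Olfr459 38 of 50 bases with Olfr460.

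Olfr393 lay in a mixed stretch. All receptors gave 11.1% and 12.4% lower and 60.1% and 57% higher in vehicle and odor mice. Of the 10 flanking receptors of Olfr393, 4 were lower and 3 higher in either treatment. The lower ones were Olfr392 (MOR135-9), adjacent to it, at -2.81 and -2.91 (SE 0.28), Olfr389 (MOR135-6) at -1.88 and -1.74 (SE 0.33), Olfr397 (MOR135-28) at -0.90 and -1.14 (SE 0.35) and Olfr390 (MOR135-26) at -0.55 and -0.50 (SE 0.16). The higher ones included Olfr23, of the same family, at 1.56 and 1.52 (SE 0.27) and the adjacent Olfr394 (MOR135-8) at 0.97 and 0.84 (SE 0.16). In the MOR135 family as a whole 5 of 16 others were lower and 6 higher in the vehicle pools, and 6 and 5 in the odor pools, with medians of -0.10 and -0.041. A coding start was at hand for 9 of these 16. The 2 most similar among those 9 differed in direction from each other in their values, and are shown with capitals at bases that differ from Olfr393 (RefSeq, GRCm38.p6, minus strand, chr11:73848074-73848123, chr11:73486773-73486822 and chr11:73517148-73517197).
Olfr393: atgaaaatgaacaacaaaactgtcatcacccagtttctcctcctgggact
Olfr381: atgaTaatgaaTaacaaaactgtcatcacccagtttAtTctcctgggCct
Olfr382: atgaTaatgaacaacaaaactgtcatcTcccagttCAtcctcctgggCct
Each shares 45 of 50 bases with Olfr393. Olfr381 (MOR135-4) was lower at -1.09 in odor mice, with -0.56 and no call in vehicle mice (SE 0.22). Olfr382 (MOR135-14) was higher by 1.48 and 1.08 (SE 0.33).

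The receptors around Olfr77 were called in both directions. All receptors gave 11.1% and 12.4% lower and 60.1% and 57% higher in vehicle and odor mice. Of the 10 flanking receptors of Olfr77, 1 was lower and 4 higher in the vehicle pools, and 3 and 4 in the odor pools. The lowest were Olfr870 (MOR141-1) at -0.94 and -0.69 (SE 0.17) and Olfr869 (MOR145-6), whose -1.04 in odor mice passed and whose -0.59 in vehicle mice did not (SE 0.28). Olfr857 (MOR146-8P) was also called in odor mice, at -0.89 (SE 0.25). The only other measured MOR143 gene, Olfr867, was higher by 0.94 and 1.01 (SE 0.28). With 10 flanking genes, nothing particular to this stretch is read from the counts.

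**Figure D4:**
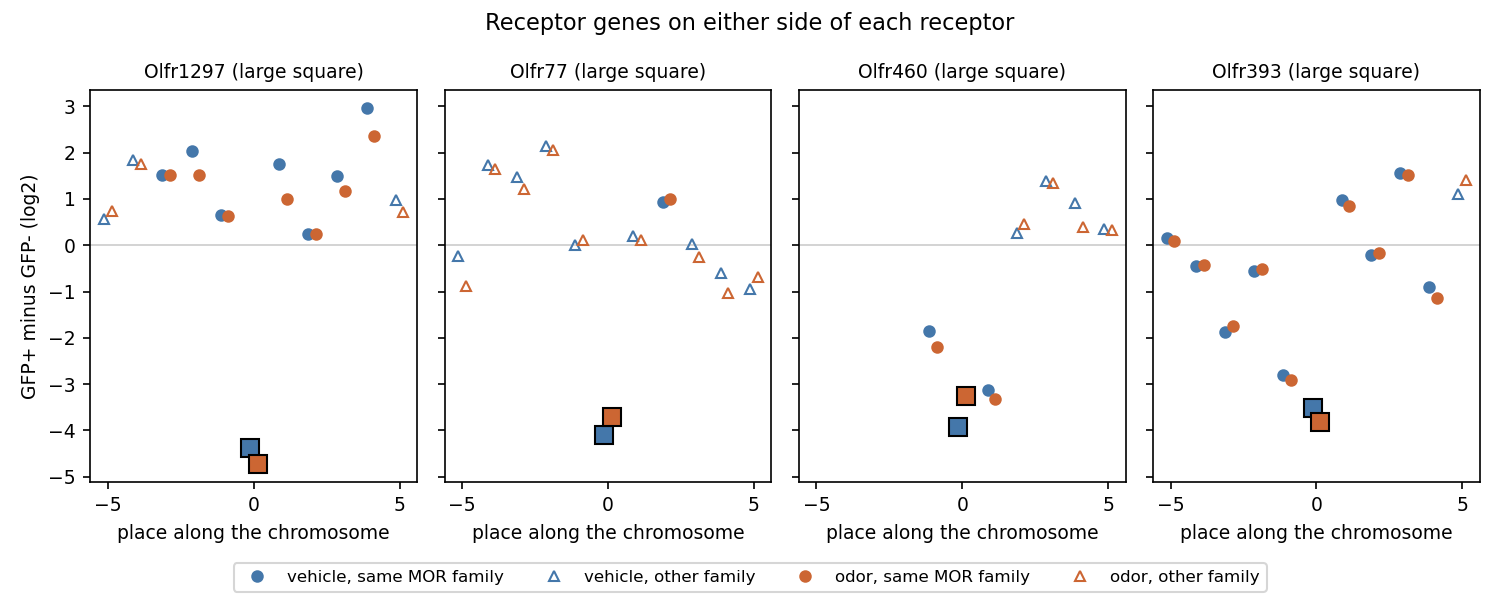
Difference between GFP-positive and GFP-negative cells (log2) of up to 5 measured receptor genes on each side of each receptor (large squares), in chromosome order, in vehicle (blue) and odor (orange) mice. Filled circles share the MOR family of the receptor and open triangles do not; neighbours of Olfr1297 lie above 0, and Olfr459 and Olfr461 lie beside Olfr460 between -1.85 and -3.32.

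Over the 36 flanking receptors 7 were lower and 18 higher in the vehicle pools, and 9 and 16 in the odor pools. Over the 32 family members 7 were lower and 17 higher, and 8 and 15. Over all receptors 11.1% and 12.4% were lower and 60.1% and 57% higher. These counts depend on the scaling. With each receptor set against the median of all receptors on its array, 16 flanking receptors were lower and 9 higher in the vehicle pools, and 16 and 8 in the odor pools, and of family members 16 were lower and 9 higher, and 15 and 5. That scaling shifts all receptors alike: of 1015 it called 35.2% lower and 27.4% higher in the vehicle pools, and 31.9% and 28.1% in the odor pools, and nothing particular to the neighbours is read from it. No flanking receptor and no family member passed the odor comparison in either fraction (limma, 0 of 36 and 0 of 32).

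For each receptor a window of 250 bases before and 50 after a reference start was read. The start used for Olfr77 alone is not itself the ATG, and its window is shown (RefSeq, GRCm38.p6, chr9:19916979-19917278, plus strand). Capitals mark TAATTA, a core recognised by homeodomain proteins, and TATAAA on either strand.
Olfr77: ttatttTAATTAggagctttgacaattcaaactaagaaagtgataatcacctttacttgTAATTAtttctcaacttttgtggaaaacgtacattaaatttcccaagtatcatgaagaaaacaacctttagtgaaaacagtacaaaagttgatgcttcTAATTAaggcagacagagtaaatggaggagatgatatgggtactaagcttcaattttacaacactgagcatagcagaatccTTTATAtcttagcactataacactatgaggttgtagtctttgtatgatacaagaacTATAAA
TAATTA occurs 3 times in this window, at -244, -191 and -93 from the start, and TATAAA 2 times. The corresponding windows of Olfr1297 and Olfr393 hold TAATTA 1 time each and that of Olfr460 0 times. Of 867 receptor windows of the same length 18.5% hold TAATTA and 41.4% TATAAA, against 5.29% and 13.6% of all 32851 windows. The form CCCNNGGGA, written after the site of Ebf factors of olfactory neurons, was in 0 of the 4 windows, in 2.54% of receptor windows and in 6.56% of all windows. The reference starts of Olfr1297, Olfr460 and Olfr393 used for these windows lie at the coding ATG and need not be where transcription begins. The gene model of Olfr460 begins at chr6:40569152, upstream of its window, whose start is chr6:40571388. Its window thus lies inside the gene and is not like that of Olfr77. These matches describe the letters only.

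Profiles most like those of the 4 receptors were sought over all 12 arrays, by the root mean square difference after each gene was centred on its own mean. Among receptors the closest to Olfr1297 were Olfr77 (0.47), Olfr728 (0.67) and Olfr393 (0.68), and the closest to Olfr77 were Olfr1140 (0.39), Olfr393 (0.40) and Olfr460 (0.42). For Olfr460 they were Olfr1140 (0.41), Olfr77 (0.42) and Olfr1178 (0.48), and for Olfr393 Olfr972 (0.39), Olfr77 (0.40) and Olfr237 (0.43). The closest genes that are no receptors were S100a8 (0.34), a calcium-binding protein gene of neutrophils, Retnlg (0.36) and the class II antigen gene H2-Aa (0.37) for Olfr1297, and Ly6e (0.22), the invariant chain gene Cd74 (0.24) and the calcium pump gene Atp2a3 (0.26) for Olfr77. For Olfr460 they were the neutrophil granule genes Lcn2 (0.37) and Ngp (0.42) and the calcium-binding protein gene S100a11 (0.39), and for Olfr393 Coro1a (0.24), an actin regulator of blood cells, Ly6e (0.27) and Ifitm2 (0.28). Likeness over these arrays rests mainly on the difference between the fractions, which chose the 4 receptors. Other genes that are very low in GFP-positive cells are therefore close by that choice, and nothing is read from these matches.

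Leukocyte genes were low in GFP-positive cells too. Of the 17 on a list of leukocyte markers 17 were lower in both treatments, with medians of -3.94 and -3.84, where 18.2% of all genes were called lower in vehicle and 18.7% in odor mice. Their summed linear signal ranged from 4506 to 4676 in vehicle GFP-positive, 4118 to 6957 in odor GFP-positive, 64902 to 75223 in vehicle GFP-negative and 63380 to 84244 in odor GFP-negative cells. None of these sums is at 0, and how much of the GFP-positive sums is background signal was not tested. S100a9 differed by -4.73 and -4.49 (SE 0.29) and Cd52, a lymphocyte surface gene, by -4.44 and -4.50 (SE 0.19). Across GFP-negative arrays the leukocyte mean was 11.50, 11.75 and 11.94 in odor replicates 2, 3 and 4. The mean of the 4 receptors there was 10.61, 10.25 and 10.52. In vehicle replicates 1, 2 and 4 the leukocyte mean was 11.47, 11.53 and 11.76 and the receptor mean 10.27, 10.62 and 10.22. In the GFP-positive array of odor replicate 2 the leukocyte mean, 7.69, was the lowest of the 6 and so was the mean of the 4 receptors, 5.98. Odor replicates 3 and 4 gave 7.96 and 8.28 for leukocytes and 6.81 and 6.97 for the receptors. GFP-positive arrays of vehicle replicates 1, 2 and 4 gave 7.83, 7.87 and 7.78, and 6.25, 6.37 and 6.54. With 3 arrays a group, nothing is read from the order of these arrays. The part of leukocyte RNA in the receptors' values was not tested.

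Markers of the neurons themselves differed far less. Omp, the marker of mature olfactory neurons, was 13.04 to 13.29 in GFP-negative and 13.45 to 13.51 in GFP-positive cells, a rise of 0.31 in vehicle and 0.33 in odor mice (SE 0.079, adjusted p = 0.00549 and 0.00412 in limma). S100a5 itself was 5.83 to 6.23 in GFP-negative and 6.29 to 6.48 in GFP-positive cells, and differed by 0.19 (SE 0.10, no call) in vehicle and rose by 0.31 (adjusted p = 0.0166 in limma) in odor mice. Each S100a5 value lay between the lower quartile and the median of its array, so its signal was in the lower part of the range. Of the measured genes of odor transduction, 13 of 16 were higher in GFP-positive cells of vehicle mice and 1 was lower, against 14 and 1 in odor mice, where 29.9% and 33.5% of all genes were called higher. Pde1c, a cyclic nucleotide phosphodiesterase, was higher by 0.86 and 0.93 (SE 0.12) and the chloride channel gene Ano2 by 0.79 and 0.77 (SE 0.11), while Rgs2, a regulator of G protein signalling that blood cells also express, was lower at -3.83 and -3.88 (SE 0.21).

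Genes of receptor choice and export went the way of the transduction genes. Of 16, 12 were higher in both treatments and 1 (vehicle) or 2 (odor) lower. Of all genes 29.9% and 33.5% were called higher and 18.2% and 18.7% lower. Among the higher genes on the list were Rtp2 at 0.72 and 0.69 (SE 0.12) and Reep1 at 0.62 and 0.78 (SE 0.15), whose proteins help receptors reach the membrane. Lbr, whose protein tethers heterochromatin at the nuclear envelope, was lower at -1.80 and -1.91 (SE 0.12). Of 14 immature neuron genes 7 were lower and 4 higher in either treatment. The shares of all genes were 18.2% (vehicle) and 18.7% (odor) lower, and 29.9% and 33.5% higher. The higher count of 4 is near that share, and nothing is read from it. The higher count in odor mice was 2 without odor replicate 3 or odor replicate 4, and 2 under cyclic loess. The higher genes were Dcx, a microtubule-binding protein gene of young neurons, at 0.67 and 0.62 (SE 0.11), Crmp1 at 0.54 and 0.47 (SE 0.13), Stmn4 at 0.52 and 0.53 (SE 0.11) and Dpysl5 at 0.38 and 0.33 (SE 0.096). The lower ones included the chemokine receptor gene Cxcr4, which blood cells also express, at -3.61 and -3.80 (SE 0.22), Gng8 at -1.23 and -0.90 (SE 0.14) and Gap43, a growth cone gene, at -0.74 and -0.62 (SE 0.12). Of 8 genes of sustentacular cells, which support the neurons, 8 were lower, against 18.2% and 18.7% of all genes. Their median was -1.75 and -1.76. Of 9 activity-dependent genes 6 were higher in vehicle mice and 7 in odor mice, with Kirrel2 at 1.25 and 1.35 (SE 0.14), and 1, Rasgrp4, was lower. The low-activity list was higher as well, 6 of 7 in vehicle and 7 of 7 in odor mice, with Epha5 at 1.35 and 1.37 (SE 0.14). For both lists the share of all genes called higher was 29.9% and 33.5%.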

How the data were processed

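Labelled RNA was hybridised to 12 Affymetrix Mouse Gene 1.0 ST arrays. The authors deposited a log2 signal per probe set. The submitters' processing notes name Affymetrix Expression Console. Version, summarization, background step and scaling: not given in the sources used here. No further scaling was applied. Of 35556 probe sets 21789 name 1 gene in the platform annotation, and the probe set with the highest mean was kept for each of 19938 genes. Left out were 1621 probe sets that name several genes and 12146 that name none. The table holds 0 columns of other samples. Arrays give no depth, so their number limits the precision.

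The 4 groups were fitted in 1 model over all 12 arrays with limma 3.58.1 (R 4.3.3) and no replicate block. Its moderated tests were two-sided, p-values were adjusted over all genes by Benjamini and Hochberg's method, and genes under 0.05 were called. The fit was tested on simulated data. Differences are log2 with the fit's SE. The 2 arrays of a pool come from the same mice, so differences between fractions of the 4 receptors were taken within pools. Deviations of the 2 arrays of a pool correlated at 0.07 to 0.25 over genes. By the same check, GFP-positive arrays of odor and vehicle mice with the same number in the sample code correlated at 0.19 to 0.31. GFP-negative arrays gave 0.44, -0.21 and 0.28, so a pairing by this number is not established. Python 3.11.15 drew the figures.

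The 4 receptors, the gene lists and the tests were chosen with earlier results of these data known. Named were the receptors, S100a5 and Omp, the next 5 receptors in order, flanking receptors that were called or singled out, the closest profiles, and up to 4 genes of each list by size of difference. Olfr1295, Olfr38, Gap43, Dcx, Crmp1, Stmn4, Dpysl5 and the MOR family members were added after the values were seen. Families by MOR name in the gene reference, which gives one for 1001 of 1015 receptors, replaced a planned comparison by protein identity.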

Additional observations from a re-analysis of the deposited data

How the results depend on the processing

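Without 1 pool at a time the odor minus vehicle difference ranged from -0.62 to 0.27 for Olfr1297 and from -0.30 to 0.22 for Olfr393 in GFP-positive cells, and from -0.049 to 0.24 for Olfr1297 and from -0.21 to 0.10 for Olfr77 in GFP-negative cells. None of these tests passed under any of their 140 alternative fits. With the number in the title as a replicate block Olfr1297 was -0.071 in GFP-negative and Olfr393 0.028 in GFP-positive cells, and Olfr393 was 0.051 with receptors centred on their own median. Arrays of odor and vehicle mice with the same number in the title correlated at -0.17 and 0.27 (GFP-positive) and 0.24 and 0.28 (GFP-negative) in their deviations. By the number in the sample code GFP-negative arrays gave 0.44, -0.21 and 0.28. GFP-positive arrays gave 0.31, 0.19 and 0.27, so the code may pair them, and that number as a replicate block on the GFP-positive arrays alone, chosen after seeing the data, gave Olfr460 0.80 (adjusted p = 0.940 in limma) and called 0 of the 4 receptors. The pool as a random replicate block (correlation 0.11) changed no call of the 4 receptors in the odor tests and moved no count of flanking, family or list genes by over 1.5 times. Centring receptors on their own median moved the vehicle differences between fractions to -5.21 (Olfr1297), -4.93 (Olfr77) and -4.34 (Olfr393), and the odor differences to -4.42 (Olfr77) and -4.51 (Olfr393). It also gave 16 and 15 lower and 9 and 5 higher family members, and 16 and 16 lower and 9 and 8 higher flanking receptors, in vehicle and odor mice. Cyclic loess gave -3.75 for Olfr393 in vehicle mice. With 3 receptors on each side 11 of 22 were higher in vehicle mice, and 5 lower and 10 higher in odor mice. With 10 on each side 13 and 16 of 71 were lower and 38 and 37 higher. The cause of these shifts was not tested, except that more or fewer flanking genes were counted. The closest receptors by protein identity were not run, since no protein sequences were used here. With 3 arrays a group, nothing separates spread between mice from that of sorting or hybridisation.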

Other observations

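Marker genes of other cell types of the mucosa differed between the fractions as well. Which cells gave these signals was not tested. Genes of respiratory ciliated cells were higher in GFP-positive cells, 6 of 6 measured in both treatments, where 29.9% (vehicle) and 33.5% (odor) of all genes were called higher, with the ciliary transcription factor gene Foxj1 at 0.62 and 0.66 (log2, vehicle and odor, SE 0.11). Of all genes 18.2% and 18.7% were called lower. The lower count of horizontal basal cell genes, 2 of 7, is near that share. It was 1 without vehicle replicate 4, without odor replicate 2 or without odor replicate 3, in both treatments with arrays centred on their median, and in vehicle mice after a second quantile normalization. Ensheathing glia genes were lower in 3 of 6 in both treatments, but in 1 of 6 without vehicle replicate 1, with Sox10 at -0.85 and -0.63 (SE 0.083). Endothelial genes were lower in 3 of 6 in vehicle and 4 of 6 in odor mice. The odor count was 2 of 6 without odor replicate 2 or odor replicate 3. Pecam1 was at -1.62 and -1.60 (SE 0.12), Cdh5 at -0.57 and -0.29 (SE 0.10) and Tek at -0.46 and -0.53 (SE 0.094). The median of the 6 was -0.34 and -0.35. Both measured erythroid genes were lower, Slc4a1 at -2.60 and -2.52 (SE 0.14). All calls are limma's over all genes.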
